A study of Mus musculus with 10 samples.

Results

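The 8 genes described here build the cell-cell junctions of the compacting mouse embryo: Cdh1 (E-cadherin), Ctnna1 (alpha-catenin), Ctnnb1 (beta-catenin), Jup (plakoglobin), Dsc2 (desmocollin 2), Dsg2 (desmoglein 2), Dsp (desmoplakin) and Pkp2 (plakophilin 2). They were taken by name, as the rows of a count table of 35976 genes whose symbol equals one of the 8, and all 8 were found. Their RNA was measured in 10 libraries of BDF1 x PWK morulae. Jarid2 is a cofactor of the Polycomb repressive complex PRC2, and the series asks how its loss changes the morula. Among the libraries of 1 female embryo each, 3 came from Jarid2 knockouts (replicates 1, 3 and 4) and 3 from wild types, and these make up the single-embryo set. The pooled set held 2 Jarid2 knockout and 2 control libraries of about 20 embryos each, with the sex of these embryos not given in the sources used here. The labels say neither how the knockout was made nor what the pooled controls carried, and a knockout single embryo replicate 2 was not analysed here.

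Mouse blastomeres flatten against each other when the morula compacts, and this flattening is known to need E-cadherin. The cytoplasmic tail of E-cadherin binds beta-catenin or plakoglobin, and alpha-catenin links that complex to actin. Desmosomes are built on a second family of cadherins, the desmocollins and desmogleins, whose tails bind plakoglobin and plakophilin, and desmoplakin ties this plaque to keratin filaments. Desmosomes are known to appear in the mouse embryo around the blastocyst stage, in the trophectoderm. Maternal and embryonic E-cadherin both contribute to adhesion of the cleaving embryo, and RNA levels do not measure protein at the membrane.

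Library totals ranged between 14830332 and 18696312 counts for single embryos and between 41003216 and 49861963 counts for pools. Levels are given as CPM, the counts of a gene scaled by the total of its library. Jarid2 had 156.1, 318.7 and 61.3 CPM in knockout single embryos 1, 3 and 4, against 580.3, 686.0 and 775.6 CPM in wild-type single embryos 1, 2 and 3. In the pools it had 180.6 and 157.9 CPM in knockouts, against 442.5 and 496.3 CPM in controls. Each knockout library was thus below each control library of its set, and knockout single embryo 3 kept the most Jarid2 RNA of the knockouts. All 8 morula markers checked were detected in each of the 10 libraries. Of the markers of cumulus or granulosa cells, Fshr, Lhcgr, Has2 and Ptx3 were at 0 counts throughout, while Amhr2 had 21.4 to 49.97 CPM and Star 0.932 to 9.13 CPM. Of the fibroblast markers, Dcn and Lum were at 0 counts throughout, and the highest, Pdgfrb, reached 3.78 CPM.

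In the single-embryo set, the 3 cadherin genes were lower in each knockout than in each wild-type embryo, while the 5 catenin and plaque genes overlapped between genotypes. Cdh1 and Dsc2 passed a 5% Benjamini-Hochberg threshold over all genes by edgeR's quasi-likelihood test, and none of the 8 was called higher. These 2 of 8 compare with 3.21% of 13830 genes called lower and 1.16% called higher in the same test. Groups that did not overlap were found for 3 of the 8 genes, all lower in knockouts, and for 15.3% of all genes tested in that direction. The median log2 change of the 8 was -0.68, beside -0.03 over all genes. All 8 passed the filter on low counts in each comparison.

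**Figure D1:**
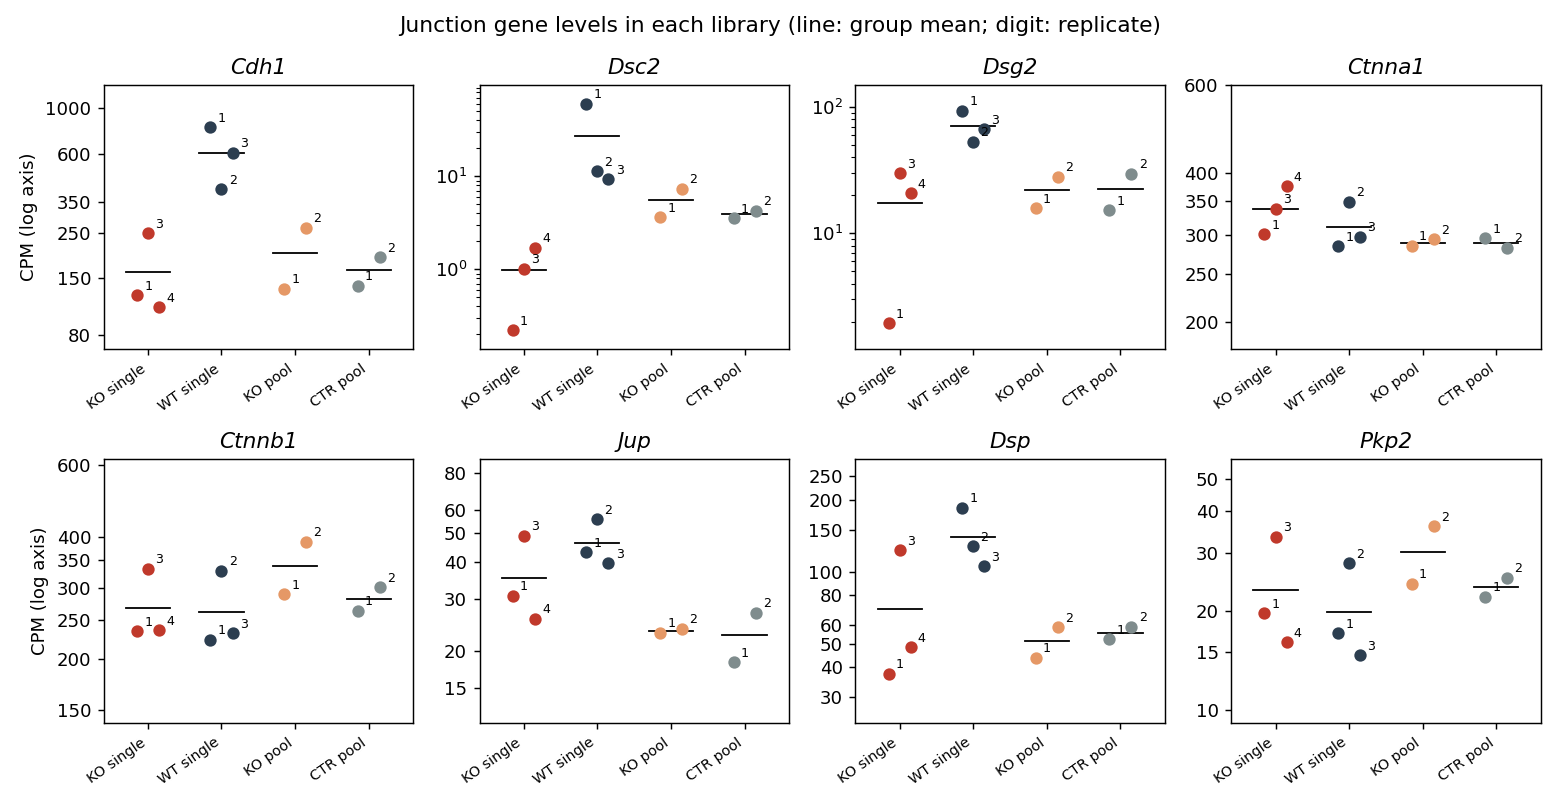
Level of each of the 8 junction genes in CPM (log axis, a range of its own in each panel), by group, with 1 point per library numbered by replicate and a line at the group mean. The wild-type single embryos stand above all other libraries for Cdh1, Dsc2 and Dsg2, and Ctnna1 spans only 282.3 to 375.6 CPM.

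Cdh1, the cadherin of the adherens junction (GRCm38.p6 chromosome 8, 106603350 to 106670247), had 124.5, 247.8 and 108.9 CPM in knockout single embryos 1, 3 and 4. It had 812.2, 404.8 and 608.2 CPM in wild-type single embryos 1, 2 and 3. The highest knockout, replicate 3, was well below the lowest wild type. The means were 160.4 ± 76.1 CPM in knockouts and 608.4 ± 203.7 CPM in wild types (SD, n = 3 each). The log2 change was -1.91 (SE 0.32, 95% interval -2.61 to -1.21), with an edgeR adjusted p of 0.0180 over all genes. The call was lost without knockout replicate 1 (adjusted p = 0.0649), knockout replicate 4 (0.0840), wild-type replicate 1 (0.0709) or wild-type replicate 3 (0.0724), while the log2 change without any 1 library stayed at -2.28 to -1.65. The alternatives gave adjusted p values between 1.85e-13 and 0.0840.

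Dsc2, one of the paired desmosomal cadherins (chromosome 18, 20030633 to 20059554), had the widest range of the 8 genes. Knockout single embryos 1, 3 and 4 held 4, 19 and 31 counts, or 0.222, 1.02 and 1.72 CPM. Wild-type single embryos 1, 2 and 3 held 892, 198 and 162 counts, or 60.1, 11.3 and 9.32 CPM. Wild-type replicate 1 was far above the other two wild types, and all 3 wild types were above the 3 knockouts. The means were 0.985 ± 0.747 CPM in knockouts and 26.9 ± 28.8 CPM in wild types (SD, n = 3 each). The log2 change was -4.72 (SE 0.88, 95% interval -6.67 to -2.78, edgeR adjusted p = 0.0210). Without wild-type replicate 1 it was -3.35 with an adjusted p of 0.104. The call was also lost without wild-type replicate 3 (0.0607), knockout replicate 1 (0.0699) or knockout replicate 4 (0.0798), and with limma-voom (0.0918), in a range of 8.79e-14 to 0.104 over all alternatives.

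Dsg2, the partner cadherin of Dsc2 in simple epithelia (chromosome 18, 20558074 to 20604526), had 1.94, 29.8 and 20.8 CPM in knockout single embryos 1, 3 and 4. It had 93.4, 53.1 and 66.4 CPM in wild-type single embryos 1, 2 and 3. The groups did not overlap, and knockout replicate 1, with 35 counts, lay far below the other two knockouts. The means were 17.5 ± 14.2 CPM in knockouts and 71.0 ± 20.5 CPM in wild types (SD, n = 3 each). The log2 change of -2.02 (SE 0.66, 95% interval -3.48 to -0.57) missed the threshold, with an edgeR adjusted p of 0.102. It passed with limma-voom (-2.56, adjusted p = 0.0357), and with edgeR and no filter on low counts (1.42e-07), in a range up to 0.293 over all alternatives.

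The catenins that bind the E-cadherin tail and join it to actin did not pass the test in either direction. Ctnna1 (chromosome 18, 35118902 to 35254776) had 300.6, 338.2 and 375.6 CPM in knockout single embryos, against 284.3, 349.2 and 297.1 CPM in wild-type ones. Ctnnb1 (chromosome 9, 120933400 to 120960507) had 234.5, 333.4 and 236.1 CPM in knockouts, against 223.7, 330.4 and 231.9 CPM in wild types. The groups overlapped for both genes. The log2 change was 0.17 (SE 0.18, 95% interval -0.22 to 0.56) for Ctnna1 and 0.07 (SE 0.20, interval -0.38 to 0.52) for Ctnnb1, with edgeR adjusted p values of 0.620 and 0.878. Both intervals leave out the size of the change measured for Cdh1. Jup (chromosome 11, 100368856 to 100397839), which serves adherens junctions and desmosomes alike, had 30.9, 49.1 and 25.8 CPM in knockouts, against 43.2, 55.8 and 39.7 CPM in wild types. Its log2 change was -0.36 (SE 0.29, edgeR adjusted p = 0.512), and the groups overlapped because knockout replicate 3 lay above wild-type replicates 1 and 3.

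Among the desmosomal plaque genes, Dsp (chromosome 13, 38151294 to 38198577), which ties the plaque to keratin, had 37.6, 123.2 and 48.6 CPM in knockout single embryos 1, 3 and 4. It had 185.2, 127.7 and 105.8 CPM in wild-type single embryos. Knockout replicate 3 fell among the wild types, and the other two knockouts lay below them. The log2 change was -0.99 (SE 0.38, edgeR adjusted p = 0.148). It was -1.59 with an adjusted p of 0.0158 without knockout replicate 3, and DESeq2 put it past the threshold with all libraries (-0.95, adjusted p = 0.0430), in a range of 0.00355 to 0.429 over all alternatives. Pkp2 (chromosome 16, 16213345 to 16272712), which binds the desmosomal cadherins and desmoplakin, had 19.7, 33.5 and 16.1 CPM in knockouts, against 17.1, 27.8 and 14.7 CPM in wild types. Its values overlapped throughout, and edgeR gave 0.25 on the log2 scale (SE 0.37, adjusted p = 0.746).

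RefSeq promoter windows (GRCm38.p6, 250 bases before to 50 after the start site) were matched for 3 of the 8 genes, Ctnnb1, Jup and Dsp. Ctnnb1 had 2 such windows, and only the more upstream of them is reported here. E-boxes are the sites through which the Snail and Zeb repressors are known to act on junction genes. Whether they bear on the levels measured here was not tested. This Ctnnb1 window and that of Dsp are shown. Each is written from 5′ to 3′ on the plus strand, with the E-box in capitals.
Ctnnb1, chr9:120933150-120933449: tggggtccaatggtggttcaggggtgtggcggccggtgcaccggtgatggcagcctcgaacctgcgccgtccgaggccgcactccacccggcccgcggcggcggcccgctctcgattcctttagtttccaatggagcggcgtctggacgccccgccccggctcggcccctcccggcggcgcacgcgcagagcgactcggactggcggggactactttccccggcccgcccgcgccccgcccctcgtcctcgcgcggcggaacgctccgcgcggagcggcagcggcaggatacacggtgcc
Dsp, chr13:38151044-38151343: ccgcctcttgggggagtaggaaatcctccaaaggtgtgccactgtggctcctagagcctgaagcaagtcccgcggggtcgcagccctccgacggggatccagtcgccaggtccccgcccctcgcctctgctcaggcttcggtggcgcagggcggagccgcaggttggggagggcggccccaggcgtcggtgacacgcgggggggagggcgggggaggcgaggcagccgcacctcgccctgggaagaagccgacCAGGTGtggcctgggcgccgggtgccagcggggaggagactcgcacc
The E-box searched was CAGGTG or its reverse complement CACCTG, and the Dsp window held 1, beginning 3 bases after the start site. The Jup window and the Ctnnb1 window shown held 0, and 20.2% of all 32851 promoter windows held at least 1. The AP-2 motif GCCNNNGGC, which reads the same on both strands in its fixed letters, occurred 1 time in the Ctnnb1 window, 1 time in the Dsp window and 0 times in the Jup window, and in 16.6% of all windows. A match of letters is not a bound site.

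The pooled set gave no such separation, and none of the 8 genes passed the test. Cdh1 had 133.3 and 263.9 CPM in knockout pools 1 and 2, against 138.0 and 189.6 CPM in control pools 1 and 2. Dsc2 had 3.63 and 7.37 CPM in knockout pools, against 3.52 and 4.26 CPM in control pools. Dsg2 had 15.7 and 28.05 CPM in knockout pools, against 15.2 and 29.6 CPM in control pools. For all 3 cadherins the genotypes overlapped, and pool 2 was above pool 1 in each genotype. The log2 changes were 0.18 for Cdh1 (SE 0.26, 95% interval -0.41 to 0.76), 0.39 for Dsc2 (SE 0.35, interval -0.38 to 1.17) and -0.13 for Dsg2 (interval -0.82 to 0.56). These intervals do not include the point estimates from single embryos. For Dsg2, however, the interval from single embryos (-3.48 to -0.57) overlapped that from the pools. The Cdh1 value was -0.32 without knockout pool 2, and the Dsc2 value was -0.12 without it.

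The catenin and plaque genes overlapped between knockout and control pools as well. Ctnna1 averaged 289.2 ± 5.9 CPM in knockout pools and 288.8 ± 9.2 CPM in control pools (SD, n = 2 each). Ctnnb1 averaged 338.9 ± 70.1 CPM in knockout pools and 282.0 ± 26.3 CPM in control pools, and Jup averaged 23.5 ± 0.504 CPM in knockout pools and 22.7 ± 6.07 CPM in control pools. Dsp averaged 51.3 ± 10.4 CPM in knockout pools and 55.7 ± 4.79 CPM in control pools, and Pkp2 averaged 30.1 ± 8.46 CPM in knockout pools and 23.7 ± 2.21 CPM in control pools. The genotypes overlapped for all 8 genes, against 24.3% of all genes with higher and 11.1% with lower non-overlapping pools. By edgeR 0 of the 8 were called, with 0% of 16259 genes called. Jarid2 itself was not called in the pools (log2 change -1.55, SE 0.18, edgeR adjusted p = 0.0794), so an absent call there is weak evidence of no change. Of all genes 1073 had an unadjusted p under 0.05, of the 8 genes 0 had one, and DESeq2 called 71 genes and limma-voom 1, none of them among the 8. The median log2 change of the 8 was 0.07, beside 0.01 over all genes.

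**Figure D2:**
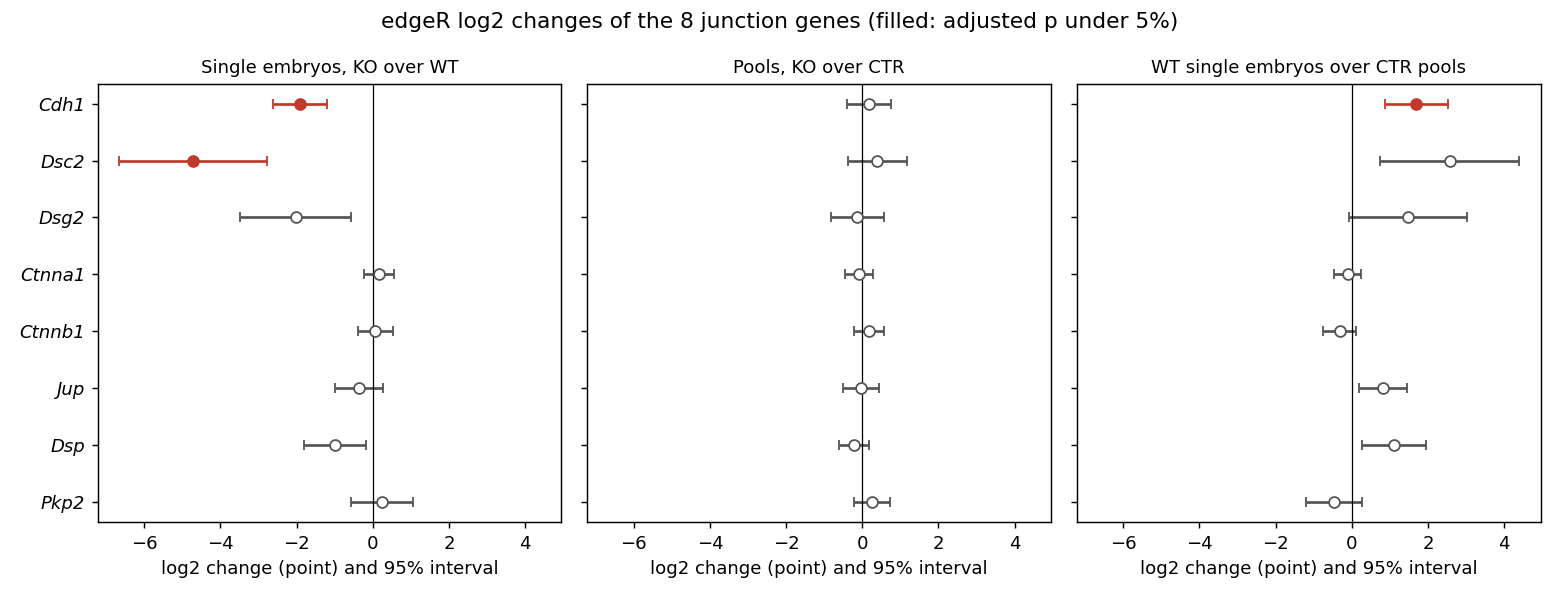
edgeR log2 changes of the 8 junction genes with 95% intervals in 3 comparisons on one scale, with filled points where the adjusted p over all genes was under 5%. Cdh1 (-1.91) and Dsc2 (-4.72) are filled in single embryos, no gene is filled in the pools, and Cdh1 (1.69) is filled where wild-type single embryos are set over control pools.

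The difference between the 2 knockout effects was tested directly over all 10 libraries. It was -2.06 for Cdh1 (SE 0.51, 95% interval -3.17 to -0.94), -5.08 for Dsc2 (SE 1.18), -1.86 for Dsg2 (SE 0.97) and -0.75 for Dsp on the log2 scale. Unadjusted, 2 of the 8 genes, Cdh1 and Dsc2, had a p under 0.05, and 0 of the 8 were called after edgeR adjustment (adjusted p = 0.235 for both). Of 15878 genes 1 was called, St6galnac4 (named after its values were seen), which is 0.0063%, while 2326 had an unadjusted p under 0.05. DESeq2 called 544 genes, Cdh1 among them (adjusted p = 0.0082), and limma-voom called none of the 8. The difference in the cadherins between the sets was therefore not shown by edgeR at 5%. For Cdh1 the alternatives gave adjusted p values between 1.63e-06 and 0.906.

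Levels were then compared between the sets within each kind of embryo. Cdh1 averaged 608.4 CPM in wild-type single embryos and 163.8 ± 36.5 CPM in control pools (SD, n = 2), and 160.4 CPM in knockout single embryos and 198.6 ± 92.3 CPM in knockout pools (SD, n = 2). The lowest wild-type single embryo had 404.8 CPM of Cdh1, and the highest of the other 7 libraries had 263.9 CPM. For Dsg2 the same bounds were 53.1 and 29.8 CPM, and for Dsc2 they were 9.32 and 7.37 CPM. Thus 3 of the 8 genes, the cadherins, were higher in every wild-type single embryo than in all other libraries, as were 10.1% of 15878 genes. Dsc2 also stood apart in the other direction, with 0.222 to 1.72 CPM in knockout single embryos and 3.63 to 7.37 CPM in knockout pools. It was 1 of the 8 genes lower without overlap in these single embryos, beside 12.8% of all genes. Ctnna1 and Jup, 2 of the 8, were higher without overlap, beside 14.6% of all genes. Set against control pools, the wild-type single embryos had a log2 difference of 1.69 for Cdh1 (SE 0.38, edgeR adjusted p = 0.0167). This was 1 of 8 genes called higher, with 4.02% of 15878 genes called higher and 6.22% lower. Leaving out wild-type replicate 1 (adjusted p = 0.0566), control pool 1 (0.230) or control pool 2 (0.0598) ended the call, in a range of 4.98e-09 to 0.230 over all alternatives.

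The other members of this comparison missed the threshold. The log2 difference of wild-type single embryos from control pools was 2.57 for Dsc2 (edgeR adjusted p = 0.0728), 1.46 for Dsg2 (0.222), 1.11 for Dsp (0.0944) and 0.82 for Jup (0.0991). It was -0.11 for Ctnna1, -0.32 for Ctnnb1 and -0.47 for Pkp2. Non-overlapping groups, higher in wild-type single embryos, were found for 5 of the 8 genes and for 28.9% of all genes. Knockout single embryos set against knockout pools gave 0 of 8 calls, with 0.466% of all genes called. An unadjusted edgeR p under 0.05 was found for 1579 of 15878 genes and for 1 of the 8. That gene was Dsc2, whose log2 difference was -2.51 (SE 0.81, edgeR adjusted p = 0.246), past the threshold by DESeq2 (adjusted p = 0.0394) and not by limma-voom. Cdh1, Dsg2 and Dsp differed by -0.36, -0.40 and 0.36 on the same scale. The sets differ in the number of embryos per library and in what is known of their sex, and any difference in how or when they were made cannot be told apart from these. The comparisons between sets use the same libraries as those between genotypes.

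Across the 10 libraries the genes ranged very differently. The highest level was 271 times the lowest for Dsc2, 48.1 times for Dsg2 and 7.46 times for Cdh1. It was 4.92 times for Dsp, 3.04 times for Jup, 2.46 times for Pkp2, 1.74 times for Ctnnb1 and 1.33 times for Ctnna1. By these extremes the order ran from the desmosomal cadherins through E-cadherin and desmoplakin to the catenins, with the alpha-catenin RNA the steadiest. The ranges of Dsc2 and Dsg2 rest on single libraries. Knockout single embryo 1 was the lowest for both, with 4 and 35 counts. Wild-type single embryo 1 was the highest for both, with 60.1 and 93.4 CPM. In whole-embryo RNA, fewer cells of a type and less RNA per cell cannot be told apart.

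**Figure D3:**
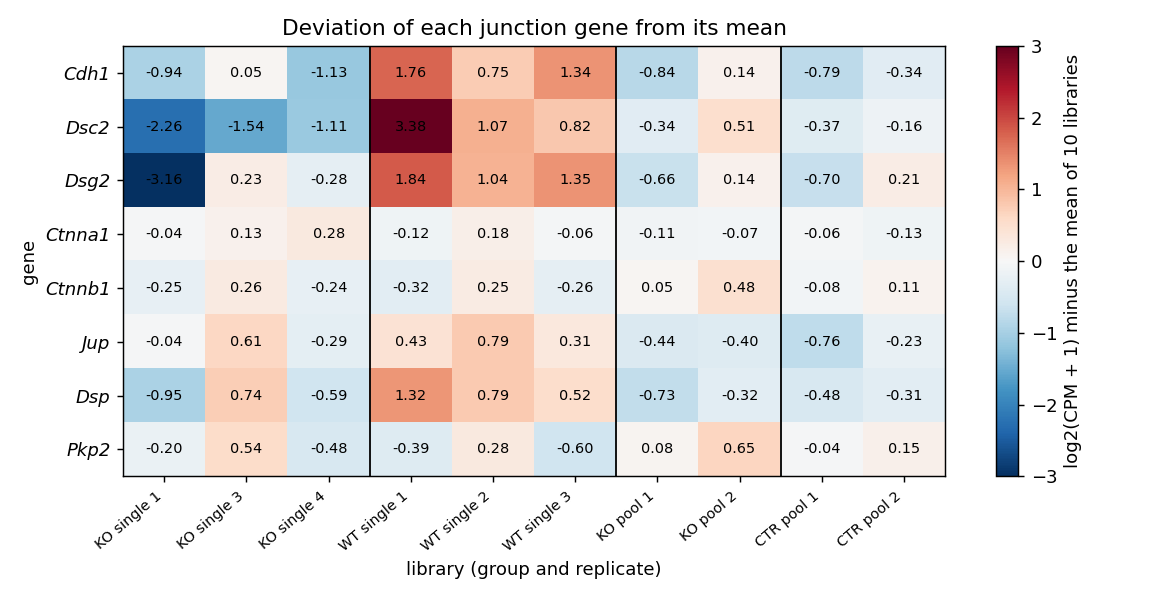
Deviation of log2(CPM + 1) from the gene's mean over 10 libraries (colour and printed value), with genes in rows and libraries in columns and lines between the 4 groups. The rows of Cdh1, Dsc2 and Dsg2 are positive in all 3 wild-type single embryos, and Dsg2 falls to -3.16 in knockout single embryo 1.

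Per kilobase of exon, which allows levels of different genes to be compared, the catenins and E-cadherin were far more abundant than the desmosomal genes. In knockout single embryos Ctnna1 averaged 52.6, Ctnnb1 51.6 and Cdh1 35.1 CPM per kilobase. In wild-type single embryos Cdh1 averaged 133.0, Ctnnb1 50.5 and Ctnna1 48.3 CPM per kilobase. The order of cadherin and catenins was thus turned round between the genotypes in this set. In knockout pools Cdh1 averaged 43.4 and Ctnnb1 65.3 CPM per kilobase, and in control pools Cdh1 averaged 35.8 and Ctnnb1 54.3. The desmosomal genes and Jup averaged 14.4 CPM per kilobase or less in every group. Dsc2 was the lowest in knockout single embryos (0.187), knockout pools (1.04) and control pools (0.737). In wild-type single embryos Pkp2 (3.71) was below Dsc2 (5.10).

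The ratio of cadherin to catenin RNA within each library shows the same feature free of library scaling. Cdh1 over Ctnnb1, per kilobase, was 0.602, 0.844 and 0.524 in knockout single embryos, against 4.12, 1.39 and 2.98 in wild-type single embryos. It was 0.523 and 0.771 in knockout pools, against 0.595 and 0.716 in control pools. Only in the 3 wild-type single embryos did Cdh1 exceed Ctnnb1, and the groups of the single-embryo set did not overlap. Jup over Ctnnb1, the 2 armadillo proteins that can occupy the E-cadherin tail, was 0.106, 0.119 and 0.0881 in knockout single embryos, against 0.156, 0.136 and 0.138 in wild-type single embryos, and 0.0496 to 0.0724 in the 4 pools. Ctnnb1 RNA was therefore the more abundant of this pair in each library.

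Within the desmosome the ratios were less even. Dsg2 over Dsp was 0.0603, 0.283 and 0.499 in knockout single embryos, against 0.589, 0.486 and 0.734 in wild-type single embryos. These groups overlapped, since knockout replicate 4 lay above wild-type replicate 2. Dsp over Pkp2 was 1.06, 2.04 and 1.68 in knockout single embryos, against 5.999, 2.55 and 4.002 in wild-type single embryos, which did not overlap. In the pools it was 1.01 and 0.902 in knockouts, against 1.315 and 1.301 in controls. These ratios were not tested.

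**Figure D4:**
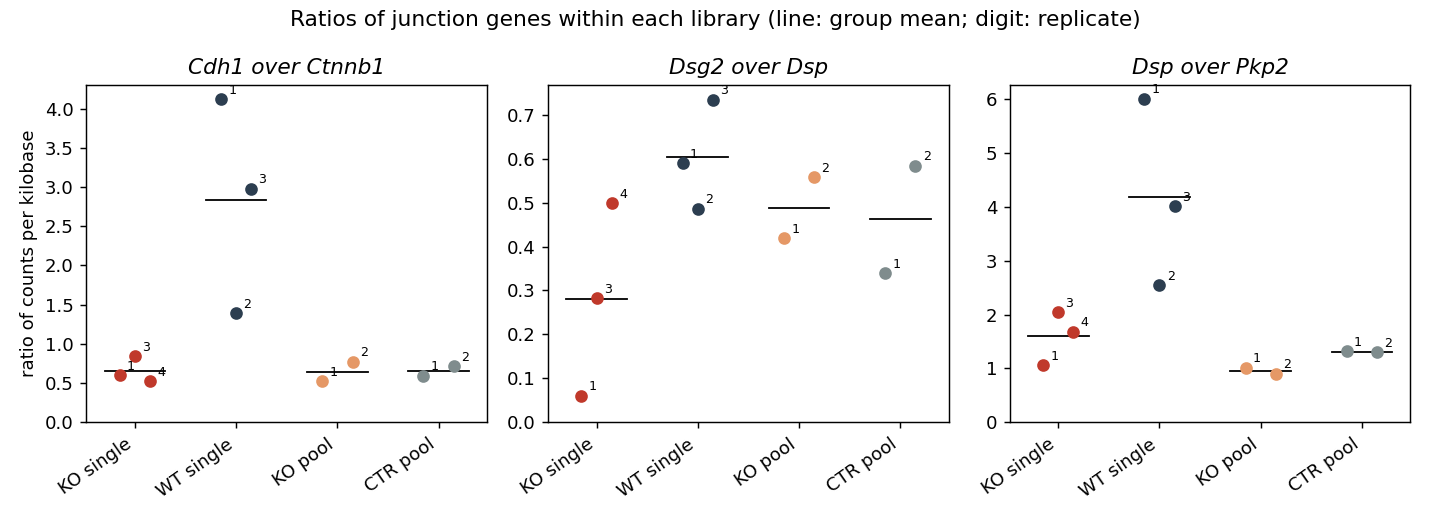
Ratio of counts per kilobase of Cdh1 over Ctnnb1, Dsg2 over Dsp and Dsp over Pkp2 in each library (point numbered by replicate, line at the group mean, linear axis of its own from 0 in each panel). Cdh1 over Ctnnb1 is 1.39 to 4.12 in wild-type single embryos and under 1 in the other 7 libraries.

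Pairs of the 8 genes moved together to very different degrees over the 10 libraries, which share groups, so that these correlations of log2(CPM + 1) are descriptions. Ctnnb1 and Pkp2 had the highest Pearson correlation, 0.956, which was 0.954 after group means were removed. Cdh1 correlated with Dsp at 0.895, with Dsc2 at 0.829 and with Dsg2 at 0.810, and within groups at 0.785, 0.499 and 0.555. Its correlations with Ctnna1 (-0.19) and Ctnnb1 (-0.07) were weak. The genes outside the set most like Cdh1, among 7685 with a mean of at least 10 CPM, were Whamm (0.994), Epb41l2 (0.988), Lmtk2 (0.987), Mtdh (0.987) and Fat1 (0.987). Those most like Dsc2 were Nid1 (0.982), Tmem258 (0.959), Spast (0.954) and Pdzd8 (0.944). Dsp stood 556th, Dsc2 1083rd and Dsg2 1228th in the ranking by likeness to Cdh1. Jup stood 2040th, Ctnnb1 4515th, Pkp2 4701st and Ctnna1 4843rd. Many genes thus followed Cdh1 more closely than the other members did.

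Dsc2 and Dsg2 lie in the desmosomal cadherin cluster of chromosome 18, which holds 9 genes of this family in the table. The other 7, Dsc1, Dsc3, Dsg1a, Dsg1b, Dsg1c, Dsg3 and Dsg4, which are known from stratified epithelia, had at most 6 counts in any library. Dsg1c had 0 counts in all of them. Dsc2 and Dsg2 were thus the members of the cluster with RNA at these depths. No stretch of 75 bases, the read length, was shared between the annotated transcripts of any of the 28 pairs of the 8 genes. Lrrtm2 lies within Ctnna1 and had at most 25.9 CPM, so reads of these overlapping genes may have been divided between them.

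A division by protein type, made after the values were seen, followed the members closely. A hydrophobic segment long enough to cross a membrane (19 residues with a mean Kyte-Doolittle hydropathy of at least 1.6 in the longest annotated protein) was found in Cdh1, Dsc2 and Dsg2 and not in the other 5. In single embryos the median log2 change was -2.02 for the 3 genes with the segment and 0.07 for the 5 without. Over all coding genes it was -0.50 for 3809 with a segment, of which 9.98% were called lower and 0.368% higher in knockouts. It was 0.14 for 7869 without one, of which 0.674% were called lower and 1.75% higher. The classes thus differed in the same direction over the whole table as among the 8 genes, and in the pools both classes had medians near 0 (0.01 and -0.01). Wild-type single embryos set against control pools had medians of 0.45 with a segment and -0.03 without. For knockout single embryos against knockout pools the medians were -0.005 with a segment and 0.06 without. The class difference therefore also set wild-type single embryos apart from control pools. Among the adherens junction partners described below, both classes had negative medians in single embryos, -1.44 for 7 with a segment and -0.68 for 13 without. By edgeR 2 of those 7 and 3 of those 13 were called lower, and 0 of either class higher. Signal peptides and hydrophobic stretches of soluble proteins also meet this definition, so the class is not one of membrane proteins alone, and the plaque protein Pkp3 falls in it.

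The partners of the adherens junction (nectins, vinculin, actinins and other linkers) were lower in knockout single embryos more often than higher. Of 24 listed genes 21 were tested, 5 were called lower and 0 higher by edgeR, where 3.21% of all genes were called lower and 1.16% higher, and the median log2 change was -0.79, beside -0.03 over all genes. Epcam, an epithelial adhesion molecule, averaged 634.4 ± 175.8 CPM in knockouts and 2053.6 ± 408.8 CPM in wild types (SD, n = 3 each), with an edgeR log2 change of -1.67 (SE 0.22) and an adjusted p of 0.0120. Nectin2, an immunoglobulin-type receptor of the adherens junction, averaged 42.5 ± 11.6 CPM in knockouts and 141.0 ± 28.9 CPM in wild types. Its edgeR log2 change was -1.70 (SE 0.26), with an adjusted p of 0.0136. Epcam and Nectin2 are both membrane proteins. The actin linkers Vcl (-1.35, SE 0.26), Iqgap1 (-0.95, SE 0.18) and, named after its values were seen, Actn4 (-0.75, SE 0.17) had smaller log2 changes and edgeR adjusted p values of 0.0226, 0.0210 and 0.0359. No gene of this list was called without knockout replicate 4 or without wild-type replicate 3, and only Epcam was called without knockout replicate 1 or wild-type replicate 1. DESeq2 called 8 lower and limma-voom 5.

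Neither the other desmosome genes nor those of beta-catenin turnover held an edgeR call in single embryos. Of 16 other desmosome genes 8 were tested and 0 were called by edgeR, DESeq2 or limma-voom, 0 had an unadjusted p under 0.05, and the median was 0.29. The keratins Krt8 and Krt18, to which desmoplakin binds, had log2 changes of -0.15 and -0.28, and the smallest p values belonged to the plaque gene Ppl (-1.86, SE 1.12) and to Pkp3 (0.86). Of 17 genes of beta-catenin turnover 15 were tested and 0 were called by edgeR. An unadjusted edgeR p under 0.05 was found for 2 of them, and for 3131 of all 13830 genes. Limma-voom called 0 and DESeq2 called 1, Apc, where DESeq2 called 1957 genes in all. Apc, a scaffold of the beta-catenin destruction complex, had a log2 change of -0.89 (edgeR adjusted p = 0.0789), and Axin2, a known target of beta-catenin signalling, had -1.16 (0.182). Of 16 genes of E-cadherin repression, shedding and endocytosis 13 were tested, and the median log2 change of the list was -0.83.

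In the pools 0 genes of these 4 lists were called by limma-voom or by the main edgeR fit. By edgeR 4 of their genes had an unadjusted p under 0.05, as did 1073 of all 16259 genes. With the replicate block added, edgeR called Nectin4 higher. The adhesion gene Nectin4 was called higher by DESeq2, and by edgeR with no filter on low counts and without each of the 4 pools in turn. It averaged 13.1 ± 5.31 CPM in knockout pools and 3.46 ± 0.348 CPM in control pools (SD, n = 2 each; log2 1.82, SE 0.30, edgeR adjusted p = 0.295). The list medians were 0.04 for the adherens partners, 0.14 for the other desmosome genes, 0.07 for beta-catenin turnover and 0.02 for the E-cadherin list, beside 0.01 over all genes. Epcam had a log2 change of -0.43 in the pools. Set against control pools, wild-type single embryos were higher for 5 of 22 tested adherens partners (Epcam, Nectin2, Iqgap1, Actn4 and Actn1), beside 4.02% of all genes, for Apc and for Adam15, and lower for Rab11a. Without control pool 1 edgeR called 0 of these genes, and without any other 1 library Nectin2, Iqgap1, Actn4 and Adam15 were still called, while Epcam, Actn1, Apc and Rab11a each lost the call in at least 1 such fit.

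**Figure D5:**
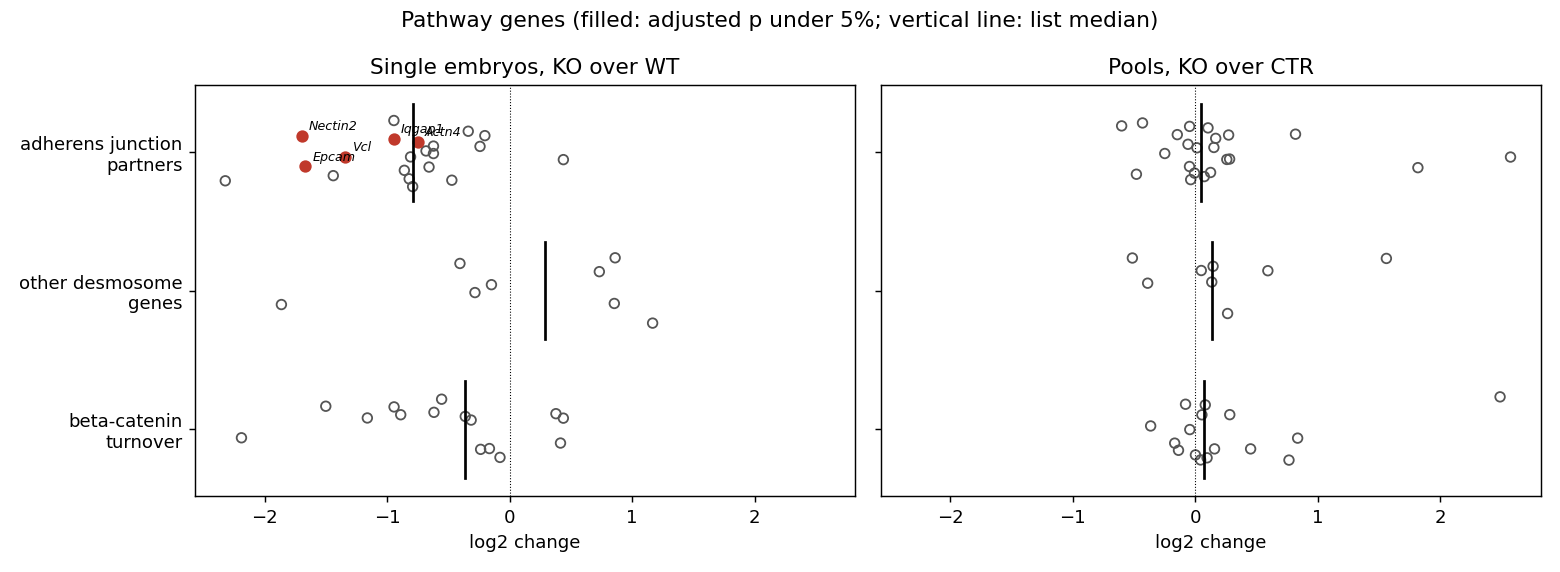
edgeR log2 changes of every tested gene of 3 pathway lists in single embryos and in pools on one scale (circles, filled and named where the adjusted p over all genes was under 5%), with a vertical bar at each list's median. The bars lie at -0.79, 0.29 and -0.36 in single embryos and within 0.15 of 0 in the pools.

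Markers of other cells that a whole-embryo sample could hold were summed in each library, and in knockout single embryos the cumulus and oocyte sums were above the mean levels of Dsc2, Dsg2 and Pkp2. The 11 cumulus and granulosa markers summed to 34.9 to 44.8 CPM in knockout single embryos and 41.7 to 55.0 CPM in wild-type single embryos, nearly all of it Amhr2 and Star. They summed to 24.3 to 24.6 CPM in knockout pools and 25.9 to 28.2 CPM in control pools, and Star was higher in wild-type single embryos than in control pools (edgeR adjusted p = 0.0171). Their part in the differences between the sets was not tested. The 7 fibroblast markers summed to 0.611 to 1.23 CPM in knockout and 0.228 to 4.52 CPM in wild-type single embryos. The 8 oocyte markers summed to 37.5 to 103.4 CPM in knockout and 48.3 to 163.3 CPM in wild-type single embryos, mostly Zp3. The ranges of the 3 lists overlapped between the genotypes in the single-embryo set. Only 2 cumulus, 3 oocyte and 0 fibroblast markers passed the filter on low counts there, and none of those tested was called.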

How the data were processed

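Read counts per gene were deposited by the authors as 1 table of whole numbers for all 10 libraries, without normalization. Per the labels' protocols, SMART-Seq v4 cDNA was built into Nextera XT libraries and read on a NextSeq instrument from one end over 75 bases. The submitters' processing notes name RSEM 1.3.1, STAR 2.7.6a and fastp 0.21.0 with the build mm10. The counting of strand and of multiply matching reads is not given there.

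The test was that of edgeR 4.0.16 (R 4.3.3): genes kept by filterByExpr with groups, TMM scaling, the two-sided quasi-likelihood F test, Benjamini-Hochberg adjustment at 5% over all genes. Each set was fitted alone for its genotype comparison, and all 10 libraries together for comparisons between sets. Standard errors come from the log2 change and its F value. CPM use library totals, and CPM per kilobase the merged exon length of GENCODE vM21. Reads carried no molecular identifiers. The tests were tried on simulated counts. Alternatives were DESeq2 1.42.0, limma-voom (limma 3.58.1), other scalings and filters, robust fitting, a replicate block, all libraries in one fit, and leaving out each library. Replicates of a group all differed beyond sampling noise, with a chi-square per gene of 49.4 to 88.4. Nothing in the labels ties the pools to separate litters, and p-values in the pools therefore cover a spread that may be technical.

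The members and the lists were chosen with earlier results of these data known. Named genes are the 8 members, up to 4 called genes with the smallest p per list and comparison (the 2 with the smallest p where none was called), and the 5 genes most correlated with Cdh1 and with Dsc2. The single-embryo calls of the E-cadherin list and 1 gene of the ranking by likeness to Dsc2 are not reported here.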

Additional observations from a re-analysis of the deposited data

How the results depend on the processing

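In single embryos the count of all genes called (605) was 1957 with DESeq2, 1715 with no filter, 187 with the replicate block, 1667 with all 10 libraries in one fit and 1 to 1316 with 1 library left out (1 without knockout replicate 4 or wild-type replicate 3, 66 without knockout replicate 1, 41 without wild-type replicate 1). The count of the 8 genes called (2) was 4 with no filter and 0 to 3 with 1 library left out. With the block it was 3, Dsg2 being added (log2 -3.25, adjusted p = 0.0150), and the list calls of Vcl, Iqgap1 and Actn4 were lost. In the pools the count of all genes (0) was 71 with DESeq2, 1 with limma-voom, 170 with no filter, 39 with the replicate block and 25 to 379 with 1 library left out, and that of the 8 genes was 0 in each; Nectin4 was also called with the block. For the difference of effects the count (1) was 544 with DESeq2, 548 with no filter, 0 with the replicate block and 0 to 2 with 1 library left out, and that of the 8 genes (0) was 1 with DESeq2 and 3 with no filter. Between wild-type single embryos and control pools the count (1626) was 2773 with DESeq2 and 74 to 2140 with 1 library left out, and that of the 8 genes (1) was 4 with DESeq2, 2 with limma-voom, 4 with no filter and 0 to 3 with 1 library left out. Between knockout single embryos and knockout pools the count (74) was 430 with DESeq2, 181 with limma-voom, 300 with no filter and 32 to 88 with 1 library left out, and that of the 8 genes (0) was 1 with DESeq2 and 1 with no filter. The causes were not tested.

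Signs turned only for values that the main test did not call. In single embryos, leaving out 1 library moved Ctnnb1 over -0.0481 to 0.251 and Pkp2 over -0.0412 to 0.548. In the pools it moved Cdh1 over -0.32 to 0.54, Dsc2 over -0.12 to 0.77, Dsg2 over -0.52 to 0.39 and Jup over -0.26 to 0.24. Jup in the pools was 0.0206 with upper quartile scaling and 0.0522 with library totals alone, where Ctnna1 was 0.0024. In the difference of effects Ctnnb1 moved over -0.20 to 0.13 and Pkp2 over -0.27 to 0.34 with 1 library left out, Ctnnb1 was 0.15 with the replicate block and Pkp2 was -0.13 with library totals. Between knockout single embryos and knockout pools, leaving out 1 library moved Cdh1 over -0.75 to 0.11, Dsg2 over -0.95 to 0.13 and Dsp over -0.25 to 0.64. Between wild-type single embryos and control pools Ctnna1 was 0.10 with library totals.

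Replicate numbers are shared between genotypes, but the labels do not say that they pair samples. Same-numbered deviations correlated at -0.17 and -0.05 in single embryos and at 0.567 in the pools, where 2 pools per genotype allow only this size with either sign. Fits that leave 1 pool in a genotype assume that it varies like the other groups. Depth limits Dsc2 most, with 4 counts in knockout single embryo 1.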
